A study of Mus musculus with 8 samples.

Results

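Transcripts of 31 autophagy and lysosome regulation genes were measured in splenic CD8+ T cells that overexpress the transcription factor ATF4 and in cells labelled WT. The members are the table rows whose symbols name autophagy initiation, conjugation, receptor and lysosome regulator genes. All 31 were found among 55291 rows, and all 31 passed the filter on low counts. The study sequenced polyadenylated RNA of CD8+ T cells enriched with a magnetic isolation kit, with no fluorescence sort named, from spleens of naïve mice. The 4 libraries called ATF4OE carry the genotype ATF4 Tg/Tg and are titled as overexpressing ATF4, and the other 4 are labelled WT. The design text names the mice ATF4Tg/Tg or E8IcreATF4Tg/Tg and gives no WT mice, so WT is used here only as the samples' label. E8I is a CD8 enhancer used to drive Cre in CD8+ T cells. No age is given, and nothing states whether each library is a separate mouse. The p-values therefore measure variation among these libraries, which may be technical.

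Autophagy is the route by which a cell encloses cytoplasm in a double membrane, the autophagosome, and delivers it to lysosomes for breakdown. The ULK1 kinase complex starts the process, a lipid kinase complex built on Beclin 1 nucleates the membrane, ATG9 and ATG2 supply lipid, and conjugation enzymes attach the small ATG8 proteins (LC3 and GABARAP) to it. Receptors such as p62 bind both cargo and ATG8 proteins, and TFEB and TFE3 raise transcription of lysosomal genes. In starved or stressed fibroblasts ATF4 and its partner CHOP are known to raise several of these genes, and resting T cells depend on autophagy for survival.

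The libraries held between 93478686 and 125974143 estimated counts. Values are CPM, counts scaled to a common total of 1e+06 with TMM factors, which correct for the make-up of each library. Known targets of ATF4 were higher in ATF4OE. Asns, asparagine synthetase, went from 0.307 ± 0.104 to 166 ± 18.2 CPM, Trib3, a pseudokinase, from 1.252 ± 0.266 to 71.7 ± 9.87 CPM and Ddit3, which encodes CHOP, from 20.4 ± 3.75 to 50.8 ± 9.93 CPM (SD, n = 4). The log2 fold change of Atf4 itself was 0.51 ± 0.31 (SE; adjusted p = 0.37, edgeR quasi-likelihood test, Benjamini-Hochberg over all genes), short of the threshold. It passed with the replicate number as a block (0.48, adjusted p = 2.2e-04). Within each library set described below, both ATF4OE libraries lay above both WT libraries, at 445 and 427 against 285 and 308 CPM in replicates 1 and 2, and at 228 and 212 against 165 and 165 CPM in replicates 3 and 4. The table does not separate reads of the transgene from those of the endogenous gene. The summed level of 6 CD8 T cell markers, of which 4 were called lower in ATF4OE, was 5106 to 5318 CPM in WT and 4091 to 4198 CPM in ATF4OE. In both groups, replicates 1 and 2 stood apart from replicates 3 and 4, and the column names of these 2 library sets are spelled in different ways. In addition, 4 libraries (WT replicates 1 and 4, ATF4OE replicates 1 and 2) had few genes with low counts. Leaving these out sets WT replicates 2 and 3 against ATF4OE replicates 3 and 4, so that values of that fit also take in differences between the library sets; Atf4, which differed by -0.92 between replicates 3 and 4 and replicates 1 and 2, was -0.11 there (adjusted p = 0.86).

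Of the 31 genes, 3 rose and 26 had an absolute log2 fold change under 0.3. These were Optn, the gene of the cargo receptor optineurin, Gabarapl1, an ATG8 gene, and Atg9a, the lipid scramblase of the growing membrane. None fell, and 28 did not pass the test. This fit had no replicate block; with the block, Lamp2 also rose (adjusted p = 2.3e-04) and Atg5 fell (adjusted p = 0.027), with 13.7% of all genes called higher and 13.5% lower. In bulk RNA, a change in the number of cells of a type and a change in RNA per cell cannot be told apart. A gene was called at an adjusted p below 0.05, and 9.16% of all 16630 tested genes were called higher and 4.89% lower. The 3 of 31 members called higher, 9.68%, are a share near that background. At an unadjusted p below 0.05 there were 4 further members, Ulk1, Tfeb and Lamp2 with ATF4OE higher and Atg5 with ATF4OE lower. The share of all genes at that looser threshold is not given here, so these 4 are not read as further changes. The median log2 fold change of the 31 members was 0.01, against -0.02 over all tested genes. Groups did not overlap for 5 members with ATF4OE higher and for 1 with ATF4OE lower, where 13.3% and 8.66% of tested genes did so (22.0% in either direction). Of the 31 members, 18 had a positive and 13 a negative log2 fold change, and scaling to total counts alone turned the sign of 10 of the 13, so no direction is read from values near 0.

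**Figure D1:**
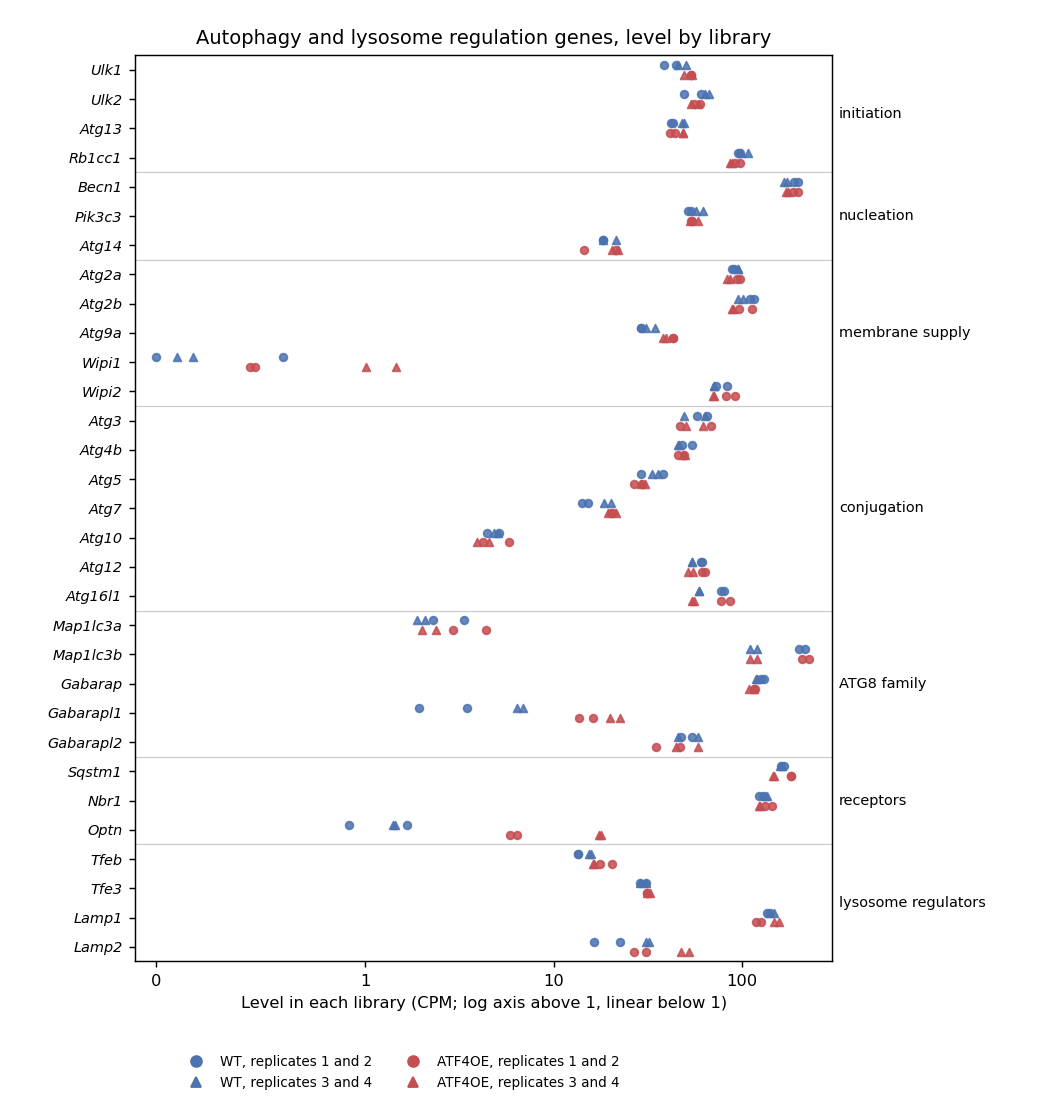
Level of each of the 31 genes in every library, in CPM on an axis that is logarithmic above 1 and linear below it. Blue is WT, red is ATF4OE, circles are replicates 1 and 2 and triangles replicates 3 and 4. The red points of Optn and Gabarapl1 lie to the right of all blue points, while the colours mix for most other genes and the symbols separate for Map1lc3b and Atg16l1.

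The promoters of the 3 members that rose, from 250 bases before to 50 bases after the start site, are printed because ATF4 acts through a short DNA element, and those of Atg3 and Lamp1 because they hold the letters bound by TFEB. The sequences are from RefSeq on GRCm38.p6, in the direction of transcription. Capitals mark the searched motifs: the core of the ATF4 and C/EBP element, TGATGNAA, and CACGTG, the center of the TFEB element, also within its longer form TCACGTGA. Both strands were searched.
Optn, chr2:5064068-5064367, minus strand: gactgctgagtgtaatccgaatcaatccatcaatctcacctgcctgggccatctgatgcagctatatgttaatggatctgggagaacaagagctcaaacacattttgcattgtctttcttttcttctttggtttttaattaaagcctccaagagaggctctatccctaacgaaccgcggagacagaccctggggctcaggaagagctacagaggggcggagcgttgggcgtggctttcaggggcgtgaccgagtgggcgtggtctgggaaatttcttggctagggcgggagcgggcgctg
Gabarapl1, chr6:129532942-129533241, plus strand: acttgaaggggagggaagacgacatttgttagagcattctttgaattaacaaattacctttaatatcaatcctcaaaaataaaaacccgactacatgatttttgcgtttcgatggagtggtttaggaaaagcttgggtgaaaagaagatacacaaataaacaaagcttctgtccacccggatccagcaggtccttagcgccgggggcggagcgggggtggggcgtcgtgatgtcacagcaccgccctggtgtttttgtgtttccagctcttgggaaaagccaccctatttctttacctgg
Atg9a, chr1:75191961-75192260, minus strand: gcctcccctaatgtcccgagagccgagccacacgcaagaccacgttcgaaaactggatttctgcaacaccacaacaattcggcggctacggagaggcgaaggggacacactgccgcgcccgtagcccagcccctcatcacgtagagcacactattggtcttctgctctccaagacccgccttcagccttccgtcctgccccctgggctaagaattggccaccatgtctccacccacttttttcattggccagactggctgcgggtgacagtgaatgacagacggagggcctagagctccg
Atg3, chr16:45158579-45158878, plus strand: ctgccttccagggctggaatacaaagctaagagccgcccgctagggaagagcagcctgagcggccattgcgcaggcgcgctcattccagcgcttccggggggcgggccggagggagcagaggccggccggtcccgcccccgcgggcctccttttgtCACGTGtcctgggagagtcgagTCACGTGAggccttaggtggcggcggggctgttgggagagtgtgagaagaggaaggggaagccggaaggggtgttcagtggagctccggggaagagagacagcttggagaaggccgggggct
Lamp1, chr8:13158911-13159210, plus strand: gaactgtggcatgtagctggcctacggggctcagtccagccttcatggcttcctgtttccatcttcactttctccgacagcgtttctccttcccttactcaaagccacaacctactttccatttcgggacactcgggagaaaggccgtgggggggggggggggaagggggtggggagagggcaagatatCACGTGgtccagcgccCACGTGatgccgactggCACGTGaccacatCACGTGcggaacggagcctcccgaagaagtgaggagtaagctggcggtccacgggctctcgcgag
RefSeq promoters were matched for 25 of the 31 members, with 29 promoters in all, and Rb1cc1, Becn1, Pik3c3, Atg12, Atg16l1 and Map1lc3a were not matched. TGATGNAA was found in 0 of these 29 and in 3.97% of 32851 promoters of the same length. As a check of the search, it was found in 3 of 9 promoters of 8 ATF4 and ATF4 target genes, those of Asns, Chac1 and Trib3. CACGTG was found in 5 of the 29 member promoters (Atg3, Atg5, Atg7, Atg14 and Lamp1), with 4 copies in Lamp1, and in 7.15% of all promoters. The longer TCACGTGA was found in Atg3 alone among the members' promoters and in 0.974% of all. The printed promoters of Optn, Gabarapl1 and Atg9a held none of the 3 motifs in this window. Those of Atg3 and Lamp1, which held CACGTG, belong to genes that did not pass the test, as described below. A match is a description of letters and not of binding.

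Among the initiation genes, none of 4 passed the test. Ulk1 (chromosome 5, 110784488 to 110810097, minus strand, GRCm38), the kinase that starts autophagy, was at 38.3, 44.4, 50.5 and 45.5 CPM in WT and at 53.7, 53.5, 49.3 and 54.3 CPM in ATF4OE. The groups overlapped through WT replicate 3, the highest WT value, and ATF4OE replicate 3, the lowest ATF4OE value. Its log2 fold change was 0.24 (95% interval 0.04 to 0.44, adjusted p = 0.12). Within replicates 1 and 2 it was 0.41 (adjusted p = 0.053) and within replicates 3 and 4 it was 0.11 (adjusted p = 0.43). The call depended on the fit, since scaling to total counts gave 0.36 (adjusted p = 0.033) and the library set as a factor 0.24 (adjusted p = 0.045). Ulk2, its paralog, Atg13, the adaptor of the kinase complex, and Rb1cc1, the scaffold FIP200, had log2 fold changes of -0.08, 0.01 and -0.13. The 95% interval of Atg13 ran from -0.18 to 0.20. Rb1cc1 ranged from 94.8 to 108 CPM in WT and from 86.2 to 97.8 CPM in ATF4OE, and was called lower within replicates 3 and 4 (-0.24, adjusted p = 0.038).

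The 3 nucleation genes were the flattest group. Becn1, the gene of Beclin 1, was at 188, 197, 167 and 172 CPM in WT and at 198, 185, 176 and 171 CPM in ATF4OE, with a log2 fold change of 0.01 (95% interval -0.16 to 0.19). The libraries of the groups interleaved throughout. Pik3c3, the lipid kinase VPS34, had a log2 fold change of -0.03 (-0.20 to 0.14), and Atg14, the subunit that directs the complex to autophagosomes, of 0.04 (-0.27 to 0.35).

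Of 5 genes of membrane supply, Atg9a (chromosome 1, 75180860 to 75192196, minus strand) rose. Its levels were 29.0, 29.2, 34.6 and 31.02 CPM in WT and 43.0, 43.2, 39.6 and 38.1 CPM in ATF4OE. All ATF4OE libraries lay above all WT libraries, and the gap was smaller between replicates 3 and 4 of the groups. The increase was 1.32-fold (95% interval 1.16 to 1.51, log2 fold change 0.40 ± 0.08, SE, adjusted p = 0.011). Replicates 1 and 2 alone gave 0.60 (adjusted p = 0.0081). The call was lost within replicates 3 and 4 (0.25, adjusted p = 0.092) and without the 4 libraries with few low counts (0.28, adjusted p = 0.23). Ankzf1, which overlaps Atg9a on the other strand, had a log2 fold change of -0.09 (adjusted p = 0.52). No source used here states whether the counting used strand.

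The other genes of this group did not pass. Atg2a and Atg2b, the lipid transfer proteins, had log2 fold changes of -0.04 and -0.12, and Wipi2, which recruits the conjugation machinery, of 0.08 (95% interval -0.15 to 0.30). Wipi1, its relative, was barely detected, at 0 to 0.606 CPM in WT and at 0.449 to 1.45 CPM in ATF4OE. Its log2 fold change of 1.94 had an interval from -0.39 to 4.26. WT replicate 2, at 0.606 CPM, lay above ATF4OE replicates 1 and 2, and without it the log2 fold change was 3.17 (adjusted p = 0.11). Within replicates 3 and 4 it was called higher (3.16, adjusted p = 0.010).

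None of the 7 conjugation genes passed. Atg5, which with Atg12 and Atg16l1 forms the ligase that attaches ATG8 proteins to lipid, was at 37.8, 29.1, 35.7 and 33.4 CPM in WT and at 29.4, 26.6, 30.4 and 29.2 CPM in ATF4OE. WT replicate 2 lay within the ATF4OE values and the other WT libraries above them. The log2 fold change was -0.23 (95% interval -0.45 to -0.02, adjusted p = 0.14), and with the replicate block it passed (-0.23, adjusted p = 0.027). Atg12 and Atg16l1 had log2 fold changes of 0.00 and -0.01, with intervals of -0.19 to 0.20 and -0.39 to 0.37. Atg7, the enzyme that activates both ubiquitin-like proteins of the pathway, was at 14.2 to 20.1 CPM in WT and at 19.4 to 21.3 CPM in ATF4OE (0.26, adjusted p = 0.22) and was called higher within replicates 1 and 2 alone (0.50, adjusted p = 0.047). Atg3 and Atg10, the E2-like enzymes, and Atg4b, the protease that trims ATG8 proteins, had values of -0.05, -0.07 and -0.01.

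In the ATG8 family, 1 of 5 genes rose. Gabarapl1 (chromosome 6, 129533160 to 129542346, plus strand), which encodes a GABARAP-like ATG8 protein, was at 1.92, 3.47, 6.39 and 6.85 CPM in WT and at 13.6, 16.2, 19.8 and 22.4 CPM in ATF4OE. The groups did not overlap, and replicates 3 and 4 were higher than replicates 1 and 2 in both. The increase was 3.86-fold (95% interval 2.18 to 6.84, log2 fold change 1.95 ± 0.37, SE, adjusted p = 0.0066). Replicates 1 and 2 alone gave 2.50 on the log2 scale (adjusted p = 0.0017), and replicates 3 and 4 alone 1.68 (adjusted p = 3.0e-04). The call was kept in all 18 alternative fits, with adjusted p of at most 0.025.

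The remaining ATG8 genes did not pass. Map1lc3b, the LC3 gene most used as an autophagy marker, was at 217, 201, 120 and 110 CPM in WT and at 225, 208, 119 and 110 CPM in ATF4OE. Its spread lay between the library sets and not between the groups, which gave a wide interval (log2 fold change 0.03, 95% interval -0.66 to 0.72). Without the 4 libraries with few low counts the value was -0.48 (adjusted p = 0.29), which includes the difference between the library sets. Gabarap, at 118 to 131 CPM in WT and 109 to 117 CPM in ATF4OE, was the 1 member whose ATF4OE libraries all lay below WT, with a log2 fold change of -0.11 (adjusted p = 0.33) that was 0.02 when scaled to total counts. Gabarapl2 and the low Map1lc3a had log2 fold changes of -0.16 (-0.48 to 0.17) and 0.28 (-0.41 to 0.97).

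To set these genes side by side, levels were divided by exon length, the union of annotated exons in kilobases, so shares move with the isoforms that length assumes. On that scale Gabarap held the largest share of the family in every library, 50.8% to 62.2%. Gabarapl1 held 0.751% to 3.27% in WT and 5.50% to 10.5% in ATF4OE (2.09% ± 1.19 and 7.85% ± 2.15, SD, n = 4). Gabarapl1 therefore remained a minor member of the family per kilobase in ATF4OE.

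**Figure D2:**
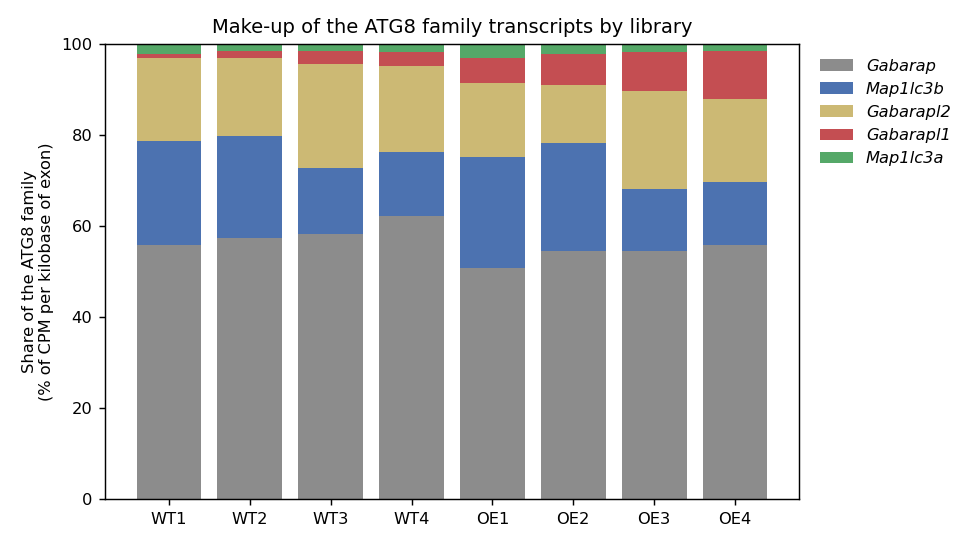
Share of each ATG8 gene in the summed CPM per kilobase of exon of the 5 genes, as stacked bars for the 4 WT and 4 ATF4OE (OE) libraries. The red segment, Gabarapl1, spans 0.751% to 3.27% in WT and 5.50% to 10.5% in ATF4OE, and the blue segment, Map1lc3b, is larger in replicates 1 and 2 of both groups.

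Among 3 receptors, Optn rose and the others did not pass. Optn (chromosome 2, 5020642 to 5064051, minus strand), which encodes optineurin, a receptor for damaged mitochondria and bacteria, was at 1.67, 0.924, 1.39 and 1.44 CPM in WT and at 6.34, 5.87, 17.4 and 17.7 CPM in ATF4OE. All WT libraries were low, and ATF4OE replicates 3 and 4 were higher than ATF4OE replicates 1 and 2. The increase was 8.73-fold (95% interval 4.56 to 16.7, log2 fold change 3.13 ± 0.42, SE, adjusted p = 0.0011), the highest fold of the 31. It was 2.27 within replicates 1 and 2 (adjusted p = 0.0056) and 3.64 within replicates 3 and 4 (adjusted p = 3.4e-05), and the call was kept in all 18 alternative fits. The interaction of group and library set did not pass for any member (0.998% of all genes did), with an adjusted p of 0.12 for Optn. Without a low-count filter that interaction passed for Optn (1.39, adjusted p = 0.0030).

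Sqstm1, the gene of p62 and a target of the stress factor NRF2 as well, was at 160, 168, 158 and 162 CPM in WT and at 181, 182, 147 and 146 CPM in ATF4OE. ATF4OE replicates 1 and 2 lay above all WT libraries and ATF4OE replicates 3 and 4 below them. Its log2 fold change was 0.02 (95% interval -0.18 to 0.22, adjusted p = 0.94). Nbr1, a receptor related to p62, had a log2 fold change of 0.01 (-0.15 to 0.17).

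None of the 4 lysosome regulators passed. Tfeb, the main transcription factor of lysosomal genes, was at 13.5, 13.4, 15.7 and 15.4 CPM in WT and at 17.6, 20.4, 16.3 and 16.1 CPM in ATF4OE. The ATF4OE libraries lay above all WT libraries, by a small margin in replicates 3 and 4. The log2 fold change was 0.28 (95% interval 0.02 to 0.54, adjusted p = 0.16), with no call in any of the 18 alternative fits. It was 0.53 within replicates 1 and 2 (adjusted p = 0.057) and 0.06 within replicates 3 and 4 (adjusted p = 0.71). Its relative Tfe3 was at 28.6 to 30.9 CPM in WT and 31.2 to 32.6 CPM in ATF4OE (0.09, adjusted p = 0.51).

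Lamp2, a lysosomal membrane protein needed for fusion with autophagosomes, was at 22.5, 16.3, 32.03 and 30.96 CPM in WT and at 31.01, 26.7, 52.5 and 47.5 CPM in ATF4OE. In each library set the ATF4OE libraries lay above WT, but the sets differed as well, so that the groups overlapped. The log2 fold change of 0.63 (95% interval 0.03 to 1.23) did not pass (adjusted p = 0.17). With the replicate block it passed (0.63, adjusted p = 2.3e-04), as it did with the library set as a factor (0.62, adjusted p = 8.4e-04) and within replicates 3 and 4 (0.67, adjusted p = 0.0020), but not within replicates 1 and 2 (0.61, adjusted p = 0.065). Without the 4 libraries with few low counts it was 1.05 (adjusted p = 0.11), which includes the difference between the library sets. Lamp1, the other abundant lysosomal membrane protein, had a log2 fold change of -0.03 (-0.24 to 0.18).

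The intervals show how far the 28 members without a call were bounded. For 24 of them the 95% interval lay within a 1.5-fold change in either direction. The 4 with wider intervals were Wipi1 and Map1lc3a, both of low level, and Map1lc3b and Lamp2, whose levels differed between the library sets. With the replicate block, 4 members were called higher (Optn, Gabarapl1, Atg9a and Lamp2) and 1 lower (Atg5).

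**Figure D3:**
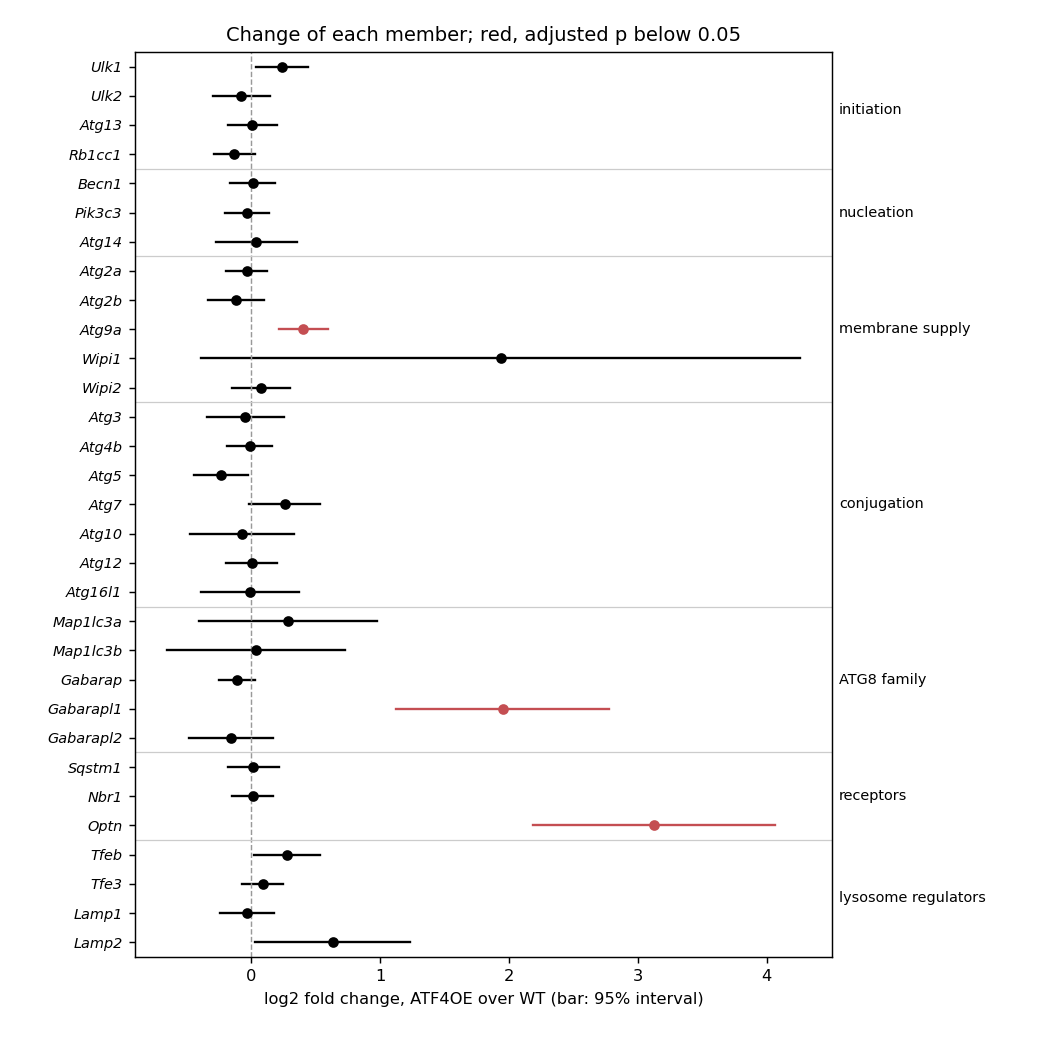
Log2 fold change of each of the 31 genes in ATF4OE over WT, with 95% intervals as bars and genes grouped by role. The 3 genes in red, Optn, Gabarapl1 and Atg9a, passed at an adjusted p below 0.05, and the intervals of most others lie close to 0.

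Summed markers of myeloid, B, erythroid, platelet and dendritic cells were also higher in ATF4OE, with no overlap between the groups. The summed level of 13 myeloid markers was 24.8 to 75.6 CPM in WT and 158 to 297 CPM in ATF4OE, with 9 of 13 called higher. Lyz2, a lysozyme gene of macrophages and neutrophils, had a log2 fold change of 2.08 that did not pass (adjusted p = 0.26) and passed with the replicate block (2.46, adjusted p = 0.021). The sum of 8 B cell markers was 35.5 to 65.3 and 110 to 283 CPM (6 higher), that of 10 erythroid markers 12.01 to 16.04 and 81.4 to 287 CPM (8 higher) and that of 7 platelet markers 3.54 to 4.67 and 9.04 to 17.2 CPM (4 higher). For 5 NK cell markers the sums overlapped, at 95.2, 114, 151 and 164 CPM in WT replicates 1 to 4 and 264, 245, 162 and 175 CPM in ATF4OE replicates 1 to 4 (2 higher). The overlap came from Eomes, at 83.0 to 123 CPM in WT and 88.4 to 110 CPM in ATF4OE. For each of the other 4 NK markers, all ATF4OE libraries lay above all WT libraries. The interaction of group and library set was called for 4 of these 5. For 5 dendritic cell markers the sum was 1.17 to 1.64 and 2.03 to 5.32 CPM (1 higher). Of all these markers only Gp9, a platelet gene, was at 0 in every WT library, and none was at 0 in all 8 libraries.

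The erythroid, myeloid, platelet and dendritic sums and Optn, Gabarapl1 and Lamp2 were all highest in ATF4OE replicates 3 and 4. The erythroid sum was 14.4, 16.04, 14.5 and 12.01 CPM in WT replicates 1 to 4 and 84.0, 81.4, 287 and 274 CPM in ATF4OE replicates 1 to 4. Like Optn, it was low in all WT libraries and higher in ATF4OE replicates 3 and 4 than in 1 and 2. In WT replicates 1 to 4, Optn was at 1.67, 0.924, 1.39 and 1.44 CPM. The myeloid sum was 24.8 and 26.1 CPM in WT replicates 1 and 2 and 75.6 and 70.5 CPM in WT replicates 3 and 4. Lyz2 made up most of this difference between library sets, at 3.16, 4.12, 43.4 and 40.8 CPM in WT replicates 1 to 4. In ATF4OE replicates 1 to 4 Lyz2 was at 42.1, 23.9, 158 and 164 CPM. The other myeloid markers were mixed. Csf1r and S100a8, for example, were also higher in ATF4OE replicates 3 and 4, while Itgam was at 43.7, 36.6, 15.2 and 16.6 CPM in ATF4OE replicates 1 to 4. Gabarapl1 and Lamp2 were higher in WT replicates 3 and 4. The B cell sum was highest in ATF4OE replicates 1 and 2, as was Atg9a. In WT replicates 1 to 4 the B cell sum was 60.3, 65.3, 35.5 and 39.1 CPM. Atg9a was at 29.0, 29.2, 34.6 and 31.02 CPM there, so in WT the library sets were ordered the other way. The part of other cell types in the rise of these genes was not tested.

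**Figure D4:**
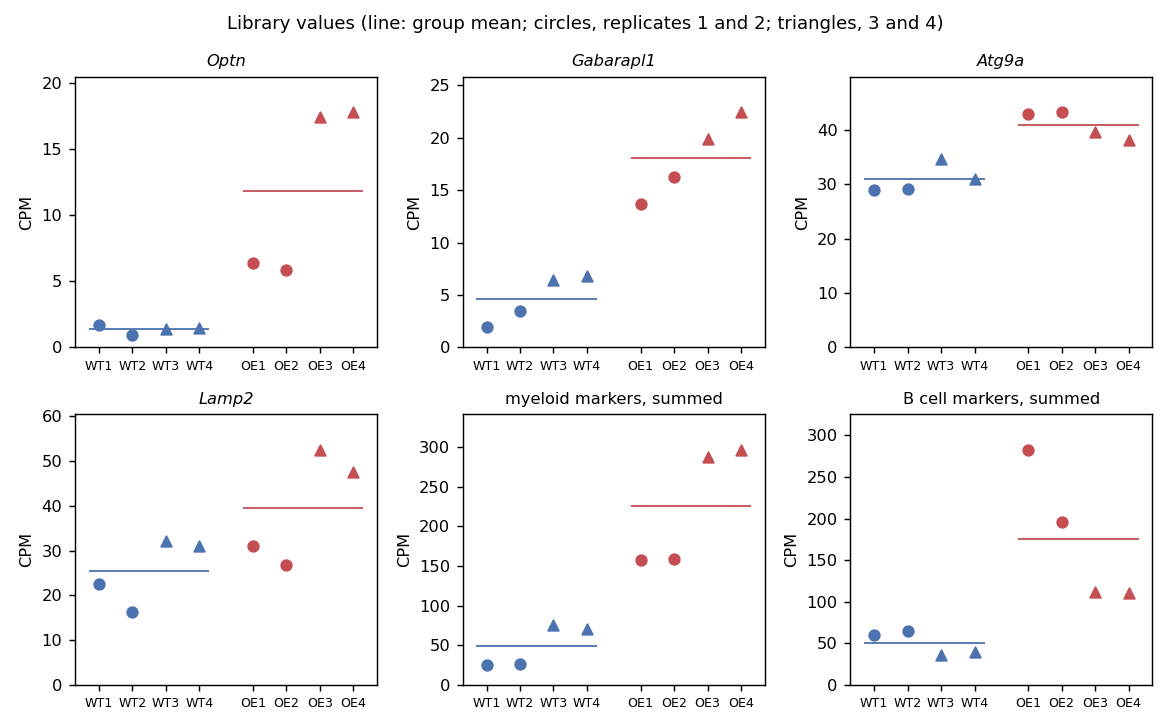
CPM in each library (WT1 to WT4 and OE1 to OE4 for ATF4OE) of the 3 members that rose and of Lamp2, beside the summed CPM of 13 myeloid and 8 B cell markers. Lines are group means, circles replicates 1 and 2, triangles replicates 3 and 4. Optn and the myeloid sum are highest in OE3 and OE4, and the B cell sum in OE1 and OE2. Lyz2 made up most of the difference of the myeloid sum between the library sets.

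The other genes of the pathway gave a similar picture. Over 6 related lists with 128 genes, all tested, 12 were higher, 9.38% against the 9.16% of all genes. A further 3 were lower, where 4.89% of all genes were lower. The median log2 fold change was -0.04, and no list was tested as a set. With the replicate block 17 were higher and 14 lower, where 13.7% of all genes were higher and 13.5% lower. The counts of single lists below come from the fit without the block and hold for that fit only. Of 18 other core autophagy genes, such as the lipid kinase subunits Uvrag and Pik3r4, none was called, with a median of 0.05. Of all genes, 14.1% were called in either direction.

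Of 16 further selective autophagy receptors and scaffolds, 2 were higher and 0 lower. That is 12.5% higher, against 9.16% of all genes, with 4.89% of all genes lower. Wdfy3, the large scaffold ALFY that links protein aggregates to autophagosomes, rose from 0.515 ± 0.195 to 5.56 ± 2.97 CPM (log2 fold change 3.43 ± 0.48, SE, adjusted p = 0.0013). As with Optn, ATF4OE replicates 3 and 4 were highest, at 8.65 and 7.54 CPM against 2.68 and 3.39 CPM. Calcoco1, a receptor for parts of the endoplasmic reticulum, rose from 53.0 ± 5.10 to 67.8 ± 6.87 CPM (log2 fold change 0.35), a call that held without ATF4OE replicate 1 or 3 but was lost without any 1 of the other 6 libraries (adjusted p between 0.037 and 0.11 over the 8 fits). Over all alternatives Calcoco1 was called in 10 of 18.

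Of 15 genes of fusion with the lysosome, 1 was higher (6.67%, against 9.16% of all genes) and 1 lower (4.89% of all genes were lower). Tecpr1, a tether that joins autophagosomes to lysosomes, was at 412 ± 13.6 CPM in WT and fell to 308 ± 26.6 CPM in ATF4OE (-0.42 on the log2 scale, adjusted p = 0.0050), a call kept in all 18 alternative fits. Stx7, an endosomal SNARE protein, rose by 0.32 (adjusted p = 0.037), a call that held without ATF4OE replicate 2 but was lost without any 1 of the other 7 libraries (adjusted p between 0.026 and 0.12 over the 8 fits). Stx7 was called in 7 of the 18 alternatives.

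Of 26 genes of the lysosomal membrane and its proton pump, only Atp6v0a1 was called, as higher (3.85%, against 9.16% of all genes). This subunit of the pump rose from 1.27 ± 0.270 to 5.78 ± 0.405 CPM (log2 fold change 2.18 ± 0.22, SE, adjusted p = 2.2e-04), with ATF4OE values of 6.06, 5.18, 5.91 and 5.97 CPM in replicates 1 to 4. Its call was kept in all 18 alternative fits.

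Of 28 lysosomal hydrolases and related lumenal proteins, 5 were higher (17.9%, against 9.16% of all genes) and 2 lower (4.89% of all genes were lower). Ctsh, cathepsin H, rose from 2.05 ± 0.528 to 9.85 ± 1.34 CPM and Lgmn, the protease legumain, from 2.24 ± 0.327 to 6.75 ± 0.652 CPM, both kept in all 18 alternative fits. Ctsl, cathepsin L, rose 1.82-fold to 19.97 ± 2.94 CPM (adjusted p = 0.0019), and Npc2, a carrier of cholesterol out of lysosomes, fell from 445 ± 27.5 to 333 ± 31.5 CPM (adjusted p = 0.0090). Both calls were lost without the 4 libraries with few low counts (adjusted p = 0.065 and 0.055). Ctsh and Lgmn are also expressed in myeloid and B cells, whose summed markers were higher in the same libraries, and the part of those cells was not tested.

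Of 25 genes around mTORC1 at the lysosome, 3 were higher (12%, against 9.16% of all genes) and 0 lower (4.89% of all genes were lower). Fnip2, a partner of folliculin, rose by 2.18 ± 0.40 (SE) on the log2 scale from 1.10 ± 0.381 to 4.997 ± 2.32 CPM (adjusted p = 0.0056), and Castor2, a relative of the arginine sensor, by 0.50 to 21.7 ± 2.31 CPM (adjusted p = 0.018), a call lost without WT replicate 1 or 4 (adjusted p = 0.051 and 0.052), within replicates 3 and 4 (0.42, adjusted p = 0.075) and without the 4 libraries with few low counts (0.28, adjusted p = 0.22). The call of Fnip2 was lost within replicates 1 and 2 (1.68, adjusted p = 0.070). Tfec, a relative of TFEB known from macrophages, was at 0 to 0.05 CPM in WT and 0.224 to 1.48 CPM in ATF4OE (adjusted p = 0.016), and its call was lost without ATF4OE replicate 3 (adjusted p = 0.065) and within replicates 1 and 2 (adjusted p = 0.24).

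**Figure D5:**
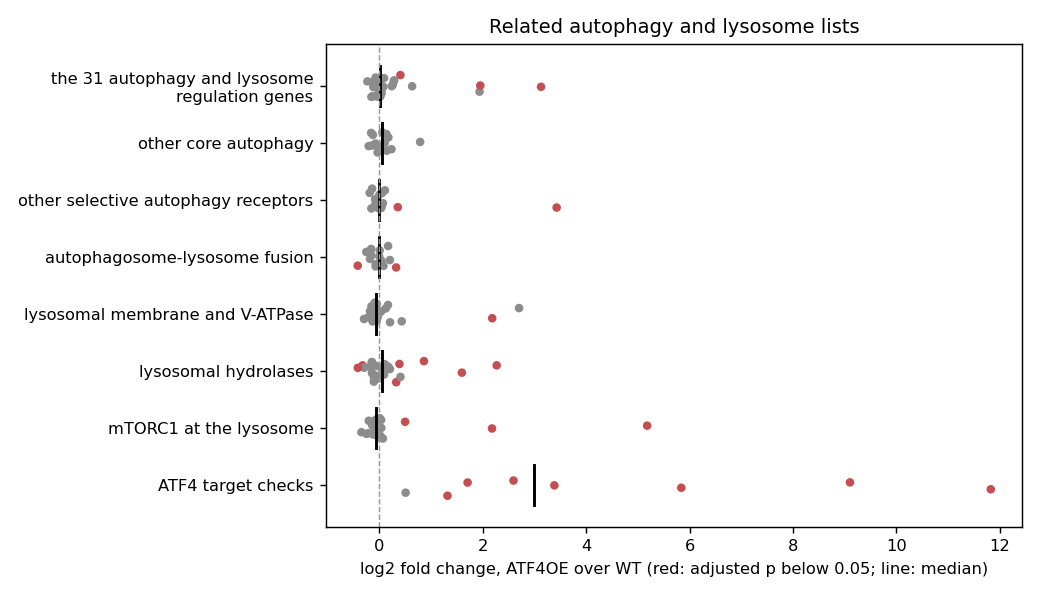
Log2 fold change of every gene in the 31-gene set, in 6 related lists and in 8 ATF4 and ATF4 target genes. Each point is 1 gene, red where the adjusted p was below 0.05, and the black line is the list's median. The medians of the autophagy and lysosome lists lie near 0, with a few genes to the right, and that of the ATF4 genes is 2.99.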

How the data were processed

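Polyadenylated RNA of 8 libraries was measured by paired-end sequencing, per the labels' protocols. Gene-level estimated counts, deposited as 1 table, were made with Salmon on GRCm38 p6, per the submitters' processing notes. No annotation release, trimming or strand setting was given. The library totals lie above the number of clusters that the labels' protocols name as the aim, and nothing read here states whether both mates were counted. Estimated counts were rounded to whole numbers, and genes were kept with edgeR's filterByExpr (16630 of 55291). ATF4OE and WT were compared with edgeR 4.0.16 (TMM factors, robust quasi-likelihood fit, R 4.3.3, limma 3.58.1), with Benjamini-Hochberg adjustment over all tested genes and a threshold of 0.05. Intervals are 95% intervals of the log2 fold change from the same fit. The 18 alternatives were RLE factors, total counts, no filter, a stricter filter, DESeq2 1.42.0, the replicate number as a block, the library set as a factor, each set alone, each library left out, and leaving out the 4 libraries in which fewer than 1500 genes had a count above 0 and below 6, a rule chosen after seeing the data.

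Replicate numbers come from the sample titles. Deviations of same-numbered libraries from their group means correlated at 0.375 to 0.47, above 0.1 for all 4 pairs, which meets the criterion for pairing. Differently numbered libraries of the same library set correlated at 0.248 to 0.376, and libraries of different sets correlated negatively. These correlations therefore also hold the difference between the library sets. The reported values come from the fit without the block, and the blocked fit is given beside each member whose call it changed. The code was tested on simulated data. All 31 members are described by role. From each related list, up to 4 called genes of smallest p are named, and Ctss is named in addition. The members and lists were chosen with earlier results of these data known. Levels are compared between genes only per kilobase of exon.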

Additional observations from a re-analysis of the deposited data

Results flagged for a closer look

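In 4 of the 62 groups of 4 libraries (31 genes in 2 groups), 1 library lay far from the other 3 by Dixon's criterion, where chance gives about 1 in 20. Ulk1 was lowest in ATF4OE replicate 3, at 49.29 CPM with the nearest library at 53.46 CPM. Atg14 was highest in WT replicate 3, at 21.27 CPM with the nearest at 18.36 CPM. Wipi2 was highest in WT replicate 1, at 82.76 CPM with the nearest at 72.9 CPM. Tfe3 was highest in ATF4OE replicate 4, at 32.62 CPM with the nearest at 31.42 CPM. Without the library in question, the log2 fold changes of these genes were 0.27, 0.10, 0.13 and 0.07 (adjusted p = 0.16, 0.77, 0.55 and 0.73, edgeR).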

How the results depend on the processing

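Optn and Gabarapl1 kept their calls in all 18 alternatives and Atg9a in 16. All 3 were called in each fit that left out 1 library. With the replicate block, 4 members were higher and 1 lower (Atg5), over all genes 2279 and 2237, and over the related lists 17 and 14. Beside the calls named in the report, the block changed no other member's call. With the library set as a factor, 5 members were higher, all genes gave 2327 higher and 1927 lower, and the related lists gave 8 lower. Within replicates 3 and 4, 1 member was lower (Rb1cc1), all genes gave 2434 and 1365, and the related lists gave 10 lower. Within replicates 1 and 2, 528 of all genes were lower. DESeq2 called 2344 genes higher. Scaling to total counts gave 385 genes lower and raised the share of calls that were higher from 65.2% to 83.5%, while the median log2 fold change of all genes went from -0.02 to 0.11 and that of the members from 0.01 to 0.14. The block lowered that share to 50.5%. Without the 4 libraries with few low counts 333 genes were lower, with 79% of calls higher and 2 members called, in a fit that also takes in differences between the library sets. Leaving out 1 library gave 518 (without ATF4OE replicate 4) to 677 genes lower, against 813. The interaction of group and library set was called for 166 genes and 0 members, and without a low-count filter for 726 genes and 1 member (Optn). The stricter filter removed Wipi1, so it has no value there. The value of Wipi1 went from 1.94 to 3.17 without WT replicate 2.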

Other observations

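Among the 31 genes, 9 differed between replicates 3 and 4 and replicates 1 and 2 of both groups, fitted together with the group, where 23.5% of all tested genes did (edgeR). This comparison was chosen after the values were seen. Map1lc3b, the LC3 gene, was lower in replicates 3 and 4 by a log2 value of -0.89 (adjusted p = 2.6e-06), and Atg16l1, which places the conjugation machinery on membranes, by -0.49 (adjusted p = 2.2e-04). Lamp2 and Gabarapl1 were higher there, by 0.75 (adjusted p = 4.0e-04) and 0.88 (adjusted p = 0.012). Atg2b, Wipi2, Atg12 and Becn1 were lower by values between -0.22 and -0.16, and Atg13 higher by 0.19. The labels do not say what separates the library sets. Atf4 was also lower in replicates 3 and 4, by -0.92 (adjusted p = 1.3e-06).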
